A study of Rattus norvegicus with 6 samples.

Results

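A group of 10 genes of inflammasome signalling and pyroptosis was described in rat aortic smooth muscle cells (RASMC): the sensors Nlrp3 and Aim2, the adaptor Pycard, the inflammatory caspases Casp1, Casp4 and Casp12, the gasdermins Gsdmd and Gsdma, and the cytokines Il1b and Il18. They were picked by symbol, with earlier results of these data known, and all 10 were among the 22574 gene symbols of the count table. Of these, 9 had enough counts to be tested and Pycard did not. The cells were primary cultures grown from aortas of male Sprague-Dawley rats. The treated group (CitH3+dsDNA, n = 3 libraries) was given dsDNA (double-stranded DNA, 300 ng/ml) and H3CIT (histone H3 in citrullinated form, 0.03 μM). Both are components of extracellular traps, which the study reports from smooth muscle cells expressing CD68 as well as from neutrophils. The control group (n = 3 libraries) received bovine serum albumin in place of both components. The time of exposure was not given in the sources used here. Wells of cells from the same rat counted as separate replicates, and p-values therefore measure the spread between these libraries, which may be technical. The comparison asked how the RNA of these genes differed in cells given both components.

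An inflammasome is a protein platform that assembles when a sensor meets a danger signal. NLRP3 responds to many kinds of cell stress and AIM2 binds DNA in the cytosol, and both recruit caspase-1 through the adaptor ASC, which Pycard encodes. Caspase-1 cleaves the precursors of interleukin-1β and interleukin-18 and also cleaves gasdermin D, whose freed N-terminal part forms pores in the plasma membrane. Caspase-4 (the rodent enzyme also known as caspase-11) cleaves gasdermin D after sensing lipopolysaccharide in the cytosol. Cleavage and pore formation are events of proteins, which RNA counts do not measure.

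RNA of 8 of the 9 tested genes was higher in CitH3+dsDNA cells, none was lower, and Nlrp3 did not pass the test (edgeR quasi-likelihood test, Benjamini-Hochberg adjusted p under 0.05). Over all 12591 genes tested, 2.2% were called in either direction and 1.94% were called higher. In these 8 genes all 3 CitH3+dsDNA libraries lay above all 3 controls in CPM (counts scaled to library size), an ordering that 10.7% of all tested genes showed. The median log2 fold change was 1.59 over the 9 tested genes and -0.00 over all genes tested. The 8 increases ran from 1.08 for Casp12 to 2.17 for Il1b on the log2 scale. Library totals lay between 17573905 and 18742395 counts, and an exact permutation test of any single gene in 3 against 3 libraries cannot give a two-sided p below 0.1, so the calls rest on the model fitted across all genes.

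**Figure D1:**
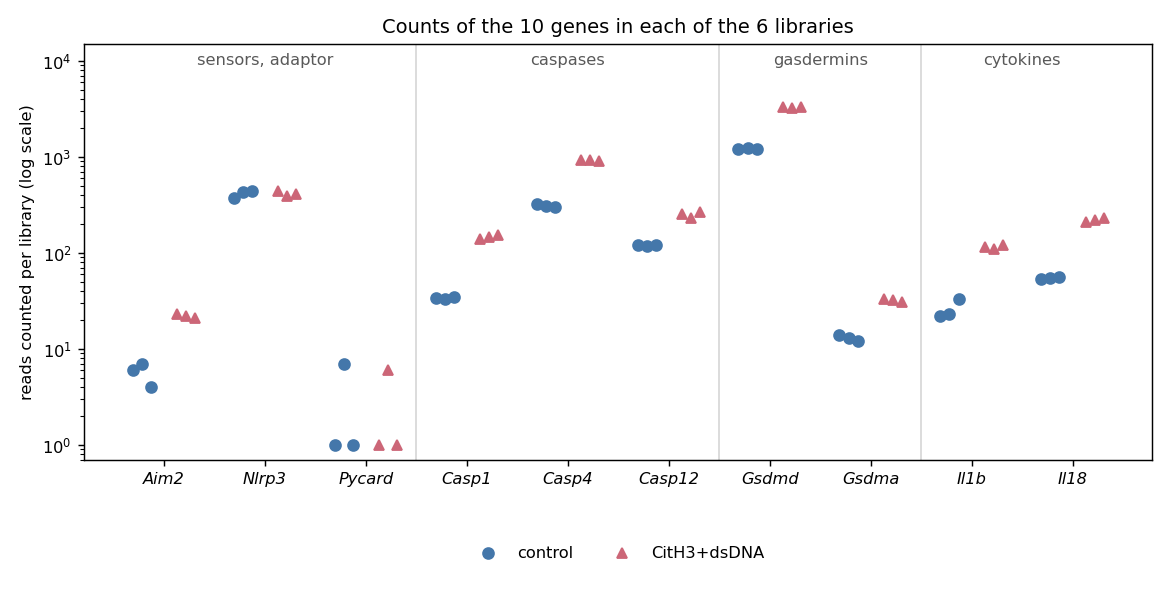
Counts of each of the 10 genes in every library, with the 3 controls and the 3 CitH3+dsDNA libraries side by side. The groups overlap for Nlrp3 and Pycard and are apart for the other 8 genes.

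Of the sensors, Aim2, which encodes the cytosolic DNA sensor, was read 23, 22 and 21 times in the CitH3+dsDNA libraries and 6, 7 and 4 times in the controls. Every treated library was above every control, although the counts were low throughout. Aim2 RNA was 3.89-fold higher, with a log2 fold change of 1.96 ± 0.35 (SE, n = 3 per group; edgeR adjusted p = 0.00735). Its level was 1.22 ± 0.0595 CPM (SD, n = 3) against 0.310 ± 0.0841 CPM in controls.

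Nlrp3, the sensor most often studied in vascular cells, gave counts of 441, 388 and 411 in CitH3+dsDNA cells and 373, 429 and 436 in controls. The highest and the lowest of the 6 counts stood in different groups but the ranges overlapped. Its log2 fold change was 0.03 ± 0.07 (SE; edgeR adjusted p = 0.893), with a 95% interval from -0.13 to 0.19, so that a rise of the size seen for the other 8 genes lay outside the interval. The mean level was 23.0 ± 1.19 CPM (SD, n = 3) with CitH3+dsDNA and 22.5 ± 1.40 CPM in controls.

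Pycard, the adaptor that joins both sensors to caspase-1, was barely detected. Its counts were 1, 6 and 1 in CitH3+dsDNA cells and 1, 7 and 1 in controls. No library exceeded 7 counts, so a difference in Pycard was not detectable at this depth.

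Casp1, which encodes the caspase that processes both cytokines, gave 140, 147 and 154 counts in CitH3+dsDNA cells and 34, 33 and 35 in controls. The lowest treated library held several times the count of the highest control. The rise was 4.40-fold, a log2 fold change of 2.14 ± 0.15 (SE; edgeR adjusted p = 1.10e-06), from 1.86 ± 0.0682 to 8.18 ± 0.405 CPM (SD, n = 3).

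Casp4, the caspase of the lipopolysaccharide pathway, was read 922, 923 and 912 times with CitH3+dsDNA and 323, 310 and 300 times in controls. The groups were far apart and each was narrow. RNA of Casp4 was 3.01-fold higher, with a log2 fold change of 1.59 ± 0.06 (SE; edgeR adjusted p = 2.44e-09).

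Casp12, a relative of these enzymes linked to the endoplasmic reticulum, gave counts of 252, 229 and 265 in CitH3+dsDNA cells and 120, 119 and 121 in controls. It had the smallest of the 8 increases, 2.11-fold, with a log2 fold change of 1.08 ± 0.10 (SE; edgeR adjusted p = 1.31e-05). The groups did not overlap.

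In the RefSeq annotation (GRCr8, a later build than the Rnor6.0 assembly used for the counts), Casp1, Casp4 and Casp12 followed each other along chromosome 8 with no other protein-coding gene between them. Promoter entries were found for 8 of the 10 genes, all except Gsdmd and Casp4. Each promoter was searched over the 250 bases before the start site, on both strands unless stated, for the core of the interferon-stimulated response element (ISRE; TTTC, any 2 bases, TTTC), the GAS element (TTCNNNGAA), the AP-1 site (TGANTCA), the NF-kB consensus and, on the gene's strand only, the TATA box (TATAAA). The ISRE core was found in Casp1 and Casp12, and in 3.41% of all 33469 promoters of this length. These 2 sequences are shown because both genes rose and because the cores lie within an identical stretch of 14 bases. They span chr8:10872580-10872829 (+ strand) for Casp1 and chr8:10926938-10927187 (+ strand) for Casp12, with the core in capitals.
Casp1: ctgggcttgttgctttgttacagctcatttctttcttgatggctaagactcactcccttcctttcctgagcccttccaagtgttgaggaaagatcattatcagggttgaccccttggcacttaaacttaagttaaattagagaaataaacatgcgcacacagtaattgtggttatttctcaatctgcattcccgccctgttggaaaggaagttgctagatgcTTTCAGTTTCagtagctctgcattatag
Casp12: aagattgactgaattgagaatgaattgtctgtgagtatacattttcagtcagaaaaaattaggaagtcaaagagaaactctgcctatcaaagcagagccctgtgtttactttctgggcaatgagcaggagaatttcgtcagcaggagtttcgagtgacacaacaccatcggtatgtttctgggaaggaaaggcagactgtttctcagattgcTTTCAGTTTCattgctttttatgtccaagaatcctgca

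The core began at position -28 in Casp1 and -38 in Casp12, counted from the start site. Casp12 also held a GAS match at -74. The promoter of Nlrp3, the tested gene that did not pass, held a GAS match at -121, and GAS matches occurred in 7.67% of all promoters. TATA boxes were found in Gsdma, at -31, and in Il1b, at -60, against 8.06% of all promoters. None of the 8 promoters held the NF-kB consensus (6.33% of all promoters) or the AP-1 letters (6.34%) in this window. These matches describe letters in a window and were not tested as sites of binding.

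Gsdmd, which encodes the pore-forming substrate of caspase-1 and caspase-4, was read 3320, 3217 and 3319 times in CitH3+dsDNA cells and 1200, 1231 and 1199 times in controls. The groups were far apart and the replicates within each differed little. RNA was 2.77-fold higher, a log2 fold change of 1.47 ± 0.04 (SE; edgeR adjusted p = 6.07e-11), from 66.1 ± 1.34 to 183 ± 0.274 CPM (SD, n = 3). The adjusted p of Gsdmd was the smallest among the 9 tested genes.

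Gsdma, a gasdermin best known from skin epithelium, gave 33, 32 and 31 counts with CitH3+dsDNA and 14, 13 and 12 in controls. The groups did not overlap, but the counts were low. Its log2 fold change was 1.32 ± 0.26 (SE; edgeR adjusted p = 0.0175). The call was lost whenever any of the 6 libraries was left out (edgeR adjusted p between 0.0601 and 0.0948) and with DESeq2 (adjusted p = 0.0834), so it was the least firm of the 8. Its level was 1.78 ± 0.0637 CPM (SD, n = 3) against 0.710 ± 0.0695 CPM in controls.

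Il1b, the gene of interleukin-1β, gave counts of 116, 109 and 120 in CitH3+dsDNA cells and 22, 23 and 33 in controls. Its rise was 4.49-fold, with a log2 fold change of 2.17 ± 0.19 (SE; edgeR adjusted p = 9.74e-06). The level went from 1.42 ± 0.313 to 6.40 ± 0.213 CPM (SD, n = 3), and the groups did not overlap.

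Il18, the gene of the second cytokine matured by caspase-1, was read 211, 222 and 233 times with CitH3+dsDNA and 54, 55 and 56 times in controls. All treated libraries lay well above all controls. The rise was 4.11-fold, a log2 fold change of 2.04 ± 0.12 (SE; edgeR adjusted p = 1.20e-07).

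**Figure D2:**
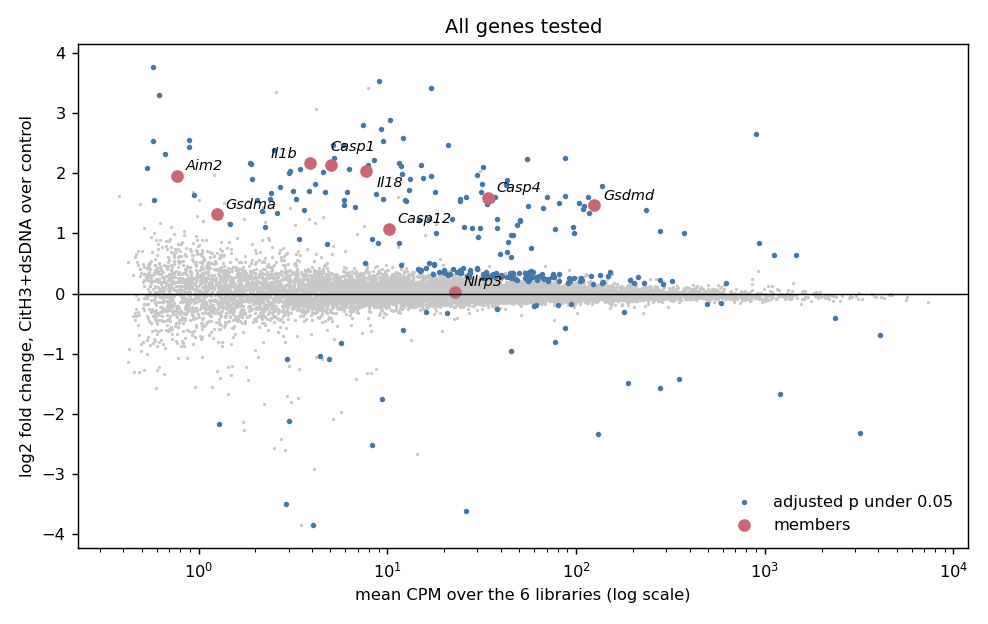
Log2 fold change of CitH3+dsDNA against control for every tested gene, plotted against its mean level, with called genes as blue points and the 9 tested genes of this group as named red points. The 8 called genes lie between 1.08 and 2.17, and Nlrp3 lies at 0.03.

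The spread between replicate counts was set against that of all genes. Counting noise alone gives a ratio of variance to mean of 1 on average, but a single set of 3 counts often falls under that. The ratio had a median of 1.56 over the 23644 sets of 3 replicate counts with means from 10 to 5000. In the 16 sets of the 8 called genes the median ratio was 0.272. Of these, 13 sets were under 1, against 8649 of all 23644 sets, and 7 (43.8%) were under 0.1, against 5.05% of all sets. The control counts of Casp12 (120, 119 and 121) had a ratio of 0.00833, and only 0.837% of control sets at a like level (within 1.5-fold) spanned as few counts. For the Casp4 counts with CitH3+dsDNA (ratio 0.0403), 2.22% of sets at a like level spanned as few.

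Several of these sets were also evenly spaced, a measure chosen after the counts had been seen. The Il18 counts of 211, 222 and 233 lay in equal steps of 11 and the Casp1 counts of 140, 147 and 154 in equal steps of 7. Over all 16 sets of the 8 called genes, 8 (50.0%) were evenly spaced, against 2.70% of all sets with means from 10 to 5000. With means from 10 to 300, they were 8 of 11 sets (72.7%). The share was then 4.89% of all 10005 sets and 4.57% of the sets of genes that were not called. This narrower window left out both groups of Casp4 and Gsdmd and the controls of Aim2, none of them evenly spaced. Even spacing was found in both groups of Gsdma, Casp1 and Il18, in the controls of Casp12 and in the treated libraries of Aim2. The ratios of Nlrp3, which did not pass, were 1.71 and 2.89. Over all genes called in the table, 15.1% of the sets with means from 10 to 5000 were under 0.1 and 8.64% were evenly spaced. The SEs and adjusted p-values of the 8 genes rest on this spread, and its cause was not tested. With dispersions set by the trend over all genes, which leaves a gene's own spread out of its dispersion, the same 8 genes were called (likelihood ratio test in edgeR, an alternative chosen after seeing the data). That fit called more genes over the whole table, 459 against 277 in the main fit. It uses the same counts, so it is no check on them.

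**Figure D3:**
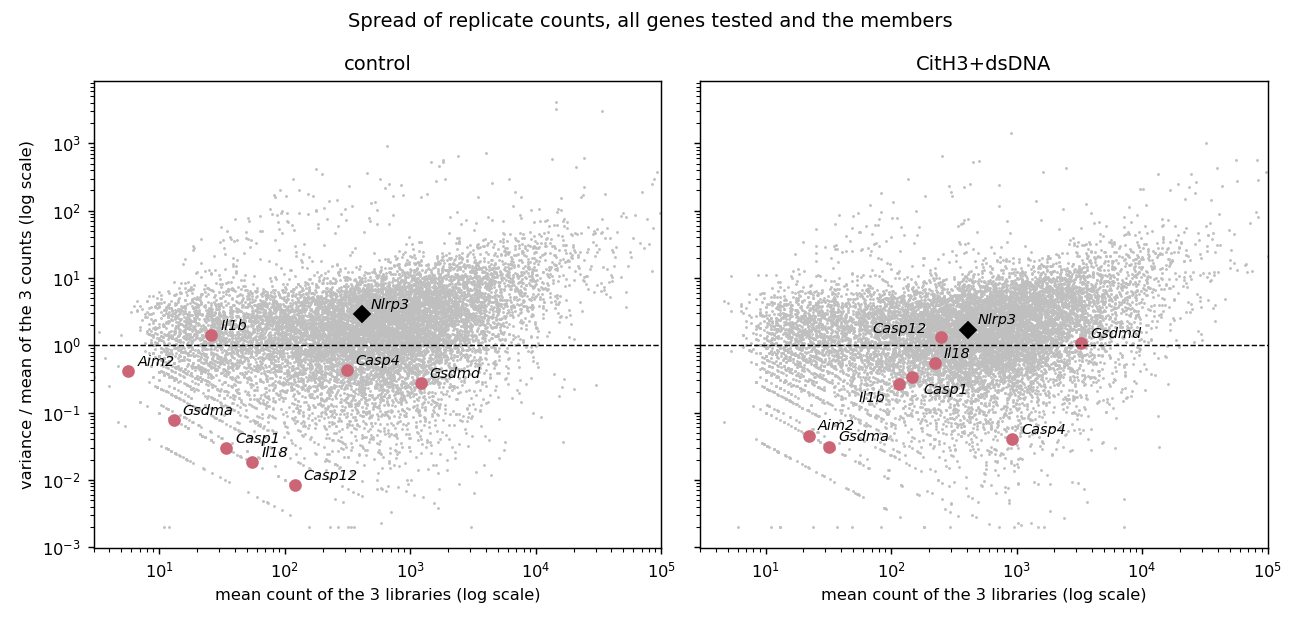
Variance divided by mean of the 3 counts of each group, plotted against their mean on log axes for all tested genes, with the dashed line where variance equals mean and sets of 3 identical counts drawn near the lower edge. Gsdma, Casp1, Il18 and Casp12 in controls and Aim2, Gsdma and Casp4 in CitH3+dsDNA lie under 0.1, and Nlrp3 lies above the line in both panels.

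Other genes of the pathway, were taken from a list of 60 chosen for their roles. Of the 44 that could be tested, 7 were higher, none was lower and 37 did not pass. Over all 12591 genes tested, 1.94% were called higher and 2.2% in either direction. The log2 fold changes of the 37 ran from -0.12 to 0.41. The median over the 44 was 0.02. Among 9 tested sensors of the NLR family and relatives, 3 rose. Nlrc4, the sensor platform for bacterial flagellin and secretion systems, gave 233, 222 and 255 counts with CitH3+dsDNA against 78, 77 and 75, a log2 fold change of 1.65 ± 0.11 (SE; edgeR adjusted p = 5.14e-07). Nlrp6, an NLR known from the intestine, went from 122, 155 and 107 counts to 366, 656 and 433, a log2 fold change of 1.95 ± 0.21 (SE; edgeR adjusted p = 5.69e-05). All 3 of its treated libraries were above all 3 controls, with the treated counts widely spread. Nlrc3, known as a negative regulator of innate signalling, gave 342, 333 and 355 counts against 87, 86 and 69, a log2 fold change of 2.11 ± 0.11 (SE; edgeR adjusted p = 2.81e-08). Nlrx1 and Nod1 did not pass, with log2 fold changes of -0.04 and -0.09 (edgeR adjusted p = 0.849 and 0.705).

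Apoptotic initiator caspases on the list also rose. Casp8, of the death-receptor route, gave 165, 214 and 166 counts in treated cells against 43, 45 and 44, a log2 fold change of 2.07 ± 0.16 (SE; edgeR adjusted p = 2.45e-06). Casp9, of the mitochondrial route, gave 789, 879 and 886 counts against 232, 212 and 221, a log2 fold change of 1.97 ± 0.08 (SE; edgeR adjusted p = 2.44e-09). In both genes every treated library was above every control. The control counts of Casp8 were evenly spaced, the only such set among the 14 sets of the 7 called pathway genes. Of those 14 sets, 2 had a ratio of variance to mean under 0.1. Casp6 had no counts in any library.

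The remaining classes held no called gene. Among pore formers and membrane rupture genes, Ninj1, which mediates plasma membrane rupture, stood at -0.07 ± 0.04 (SE; edgeR adjusted p = 0.520) and the necroptosis kinase gene Ripk3 at 0.03 (adjusted p = 0.782). The 4 tested IL-1 family ligands and decoys stood between -0.08 and 0.06, and included Il1rn, the receptor antagonist, at 0.06 (edgeR adjusted p = 0.712) and Il18bp, the interleukin-18 binding protein, at -0.08 (adjusted p = 0.718). The 5 tested receptors stood between -0.12 and 0.41, with Il1r1 at 0.10 (edgeR adjusted p = 0.533) and its partner Il1rap at 0.03 (adjusted p = 0.908). The 16 tested regulators of assembly stood between -0.07 and 0.26, and included the lysosomal protease gene Ctsb at -0.05 and Serpinb9 at -0.04 (edgeR adjusted p = 0.548 and 0.635). Chmp3 and Chmp4b, of the membrane repair machinery, stood at -0.06 and -0.03 (edgeR adjusted p = 0.490 and 0.865).

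**Figure D4:**
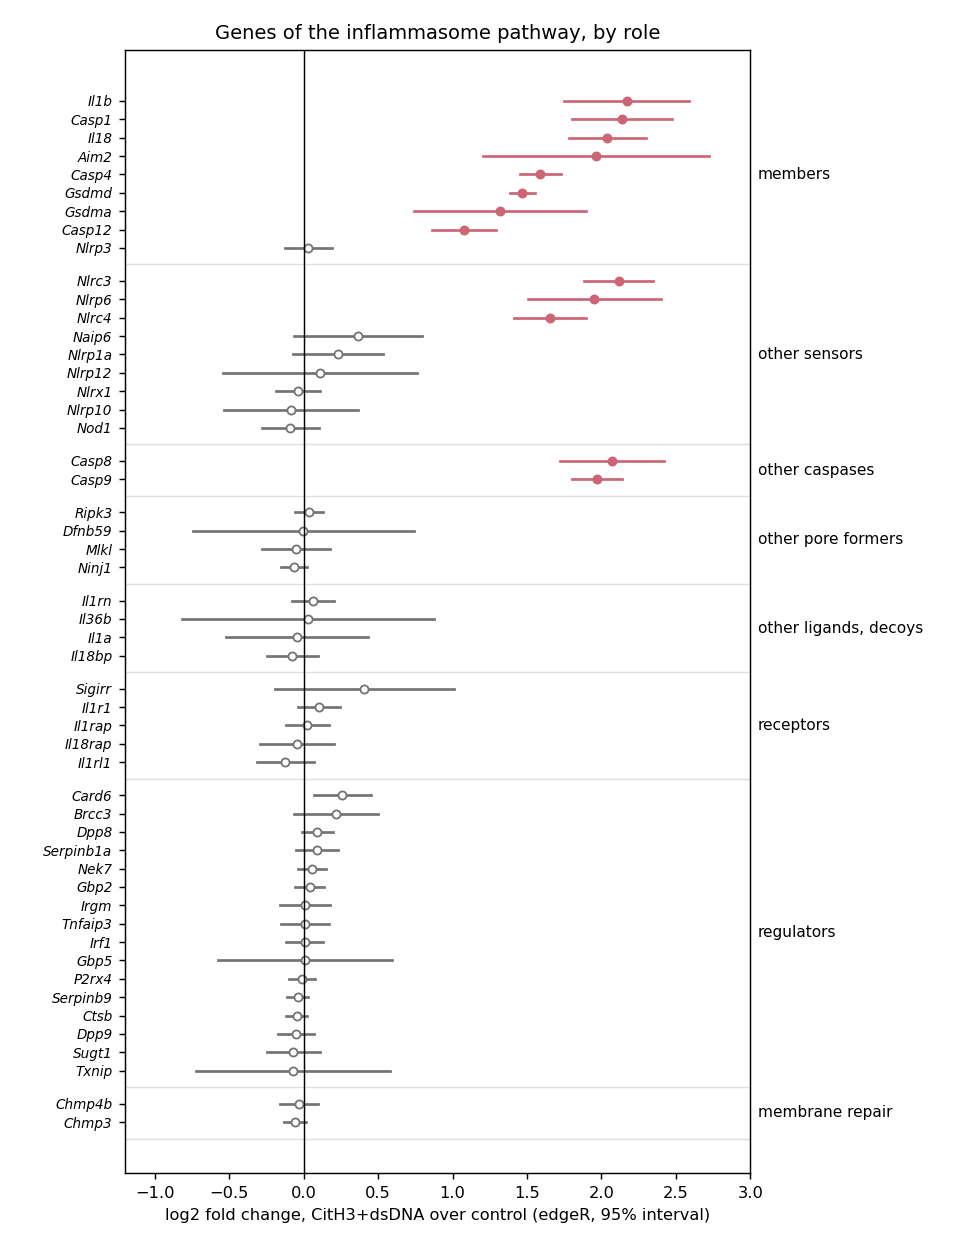
Log2 fold change of CitH3+dsDNA against control with 95% intervals for the 9 tested genes and the other genes of the pathway reported here, arranged by role, with called genes as filled red points. Casp8, Casp9, Nlrp6, Nlrc4 and Nlrc3 lie to the right with the 8 called genes, and the other 37 pathway genes lie between -0.12 and 0.41.

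The labelled cell type was checked on its markers. All 10 smooth muscle markers were tested, and their summed level was 5915 to 6462 CPM with CitH3+dsDNA and 8652 to 9399 CPM in controls, with 4 markers lower and 1 higher. Most of the lower sum came from Acta2, the smooth muscle actin gene, at 3115 against 5025 CPM. The log2 fold changes of the 4 lower markers were -1.57 ± 0.09 for Cnn1, -0.69 ± 0.06 for Acta2, -0.40 ± 0.04 for Tagln and -0.21 ± 0.05 for Smtn (SE, edgeR adjusted p at most 0.0386). Myocd, which encodes a coactivator of the contractile genes, was higher by 1.09 ± 0.08 on the log2 scale (SE, edgeR adjusted p = 1.60e-06). The other 5, Myh11 (0.06), Mylk (-0.01), Des (-0.06), Lmod1 (-0.06) and Synpo2 (-0.04), did not pass. In a single summed level from bulk RNA, fewer cells of a type and less RNA per cell cannot be told apart, and neither was tested. None of the 7 tested of 14 macrophage and myeloid markers was called. The 14 summed to 76.3 to 78.6 CPM against 76.8 to 80.6 CPM. Cd14 (52.1 against 52.3 CPM) and Csf1r (18.1 against 19.7 CPM) made up most of that sum, so it says little about the low markers. Aif1, too low to be tested, gave 8, 9 and 9 counts against 2, 2 and 3. Lyz2 lay the other way, at 0.411 against 0.731 CPM, with overlapping groups. Ptprc, Itgam, C1qa, C1qb and Mrc1 stayed at 2 counts or fewer in every library. The 5 neutrophil markers summed to 6.92 to 8.59 CPM against 6.05 to 6.68 CPM in controls. None of the 3 tested was called, and Elane stayed at 2 counts or fewer. S100a8 (13, 15 and 16 counts against 7, 8 and 9) and S100a9 (22, 23 and 24 against 11, 12 and 13) did not overlap between groups. The counts of S100a9 in both groups and of S100a8 in controls were evenly spaced. The part of cells bearing Aif1 or these neutrophil markers in the rise of the 8 genes was not tested. The 7 endothelial markers summed to 8.44 to 8.91 CPM against 9.81 to 10.6 CPM with none called, and the 4 T cell markers to at most 0.716 CPM with none tested.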

How the data were processed

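RNA from RASMC was sequenced from stranded, poly(A)-selected libraries. The authors deposited raw counts per gene symbol. Their methods give TopHat alignment to Rnor6.0 and HTSeq counting, whereas the submitters' processing notes list TopHat2 2.1.1, Cufflinks 2.2.1 and Cuffdiff. The strand setting used in counting was not given in the sources used here. Counts were used as deposited. After filterByExpr and TMM scaling, genes were compared in edgeR 4.0.16 (quasi-likelihood, two-sided, Benjamini-Hochberg over 12591 genes, threshold 0.05) in R 4.3.3. The SE was derived from the coefficient and its F statistic. DESeq2 1.42.0 and limma-voom 3.58.1 were alternatives. The fit was tested on simulated counts drawn with a variance no smaller than the mean. That test does not bear on the narrow sets of counts described above. The 10 genes and all lists were chosen with earlier results of these data known. All 10 genes, the called genes of the list of 60 (except 2 that are counted but not reported here) and the 2 genes of highest mean CPM among the uncalled in each role were named, with marker lists given by counts and summed level.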

Additional observations from a re-analysis of the deposited data

How the results depend on the processing

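Under 16 alternative settings, no called gene changed direction. Nlrp3, never called, had a log2 fold change of -0.01 without CitH3+dsDNA replicate 1 and -0.02 without control replicate 1, against 0.03 in the main fit. Of 255 values of single genes, 246 stayed on the same side of the threshold and 9 lost their call. Gsdma accounted for 8 of the 9, with adjusted p from 0.00820 to 0.0948 over all settings, and Nlrp6 for the other, with robust dispersion (adjusted p = 0.0860). Between 7 and 8 of the 9 tested genes were called in every setting. Aim2 could not be tested when genes under 10 counts in any library were filtered out, and its adjusted p otherwise lay between 0.000335 and 0.0488. The number of genes called over the whole table was 277. It lay between 164 (without CitH3+dsDNA replicate 1) and 357 (without control replicate 3) when 1 library was left out, was 184 without control replicate 1, and was 459 with a likelihood ratio test on the trended dispersion, an alternative chosen after seeing the data. The cause of these shifts was not tested.

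Deviations of same-numbered libraries from their group means correlated at -0.0458, 0.00452 and 0.0355. Low correlations cannot show whether the libraries were paired by replicate number, which the labels do not say. With the replicate block, 212 genes were called, and Gsdma was no longer past the threshold (adjusted p = 0.0576). Pycard, with at most 7 counts in a library, could not be tested at this depth.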

Other observations

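The NLR family was also read out by symbol, a choice made after values of these data had been seen. The table held 21 such symbols, of which 16 were tested, 8 were higher, none was lower and 8 were not called, against 1.94% of all tested genes called higher. The risers beyond Nlrp6, Nlrc4 and Nlrc3 were Naip5, Nlrp4, Nlrp4a, Nlrp5 and Nlrp9. Naip5, a receptor for bacterial flagellin upstream of Nlrc4, gave 363, 319 and 438 counts in treated cells against 100, 101 and 102, a log2 fold change of 1.91 (edgeR adjusted p = 1.70e-07). The control counts of Naip5 were evenly spaced, as in several of the 8 genes. Its relative Naip6, which may share reads with it, gave 70, 54 and 73 against 42, 58 and 56, with a log2 fold change of 0.36 (adjusted p = 0.451).

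Nlrp4, Nlrp5 and Nlrp9 are known from oocytes and early embryos. Nlrp5 was read 344, 233 and 543 times with CitH3+dsDNA and 23, 78 and 88 times without it, a log2 fold change of 2.59 ± 0.34 (SE; edgeR adjusted p = 0.000591). Nlrp4 was read 322, 211 and 343 times against 32, 55 and 66, a log2 fold change of 2.54 ± 0.22 (SE; adjusted p = 6.99e-06). The log2 fold changes of Nlrp9 and Nlrp4a were 2.14 and 2.17. Gsdmc, a gasdermin outside the lists and named after its values were seen, had too few counts to be tested, with 8, 9 and 8 counts against 3, 2 and 0.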
